A study of Mus musculus with 6 samples.

Results

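The 6 libraries of a mouse lateral amygdala RNA-seq study were compared by replicate number: the 3 libraries numbered 2 against the 3 numbered 1, each within its own group. All 6 libraries of the series entered, as 3 pairs that share no library. The groups were control, Baf53b siRNA and scrambled siRNA. Small interfering RNAs lower a matching transcript; the scrambled one has a shuffled order of bases and the other is directed against Actl6b (the gene of BAF53b, a neuronal subunit of the BAF chromatin remodelling complex). All groups were male 129xC57BL/6 hybrid mice of 2 to 3 months. An injection of BAF53b siRNA 1 day after training is described for the study. The labels do not give what the control mice received, or whether they were trained. Tissue of 4 mice is mentioned without saying whether each library pools them. The labels also do not say what libraries of the same number share, such as a dissection, an extraction or a sequencing run, and in each group only 1 library carries each number. The p-values for the number rest on the spread of the 3 pair differences, taken within groups, which may be technical.

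The lateral amygdala is a pallial nucleus of mostly glutamatergic neurons that receives sensory input during fear learning. It borders the striatum, the central and basal amygdala and the piriform cortex, so a punch of tissue can take in neighbouring cells, whose regional marker genes then appear in the RNA. Mitochondrial RNA, made from the genome of the organelle, is abundant in neurons. A further class that bears on the results is the processed pseudogene, a copy of a spliced messenger RNA that was reinserted into the genome. Its sequence is often nearly identical to that of its parent gene, so a read from the one can be assigned to the other.

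Levels are given in FPKM (fragment numbers corrected for the length of the transcript and the size of the library), and differences are replicate 2 minus replicate 1 on the log2(FPKM + 1) scale, which understates changes of genes with low FPKM. The replicate 2 library held more fragments than its partner in every group, as estimated from the deposited confidence intervals: 8.93 M in replicate 1 and 10.3 M in replicate 2 for control, 6.42 M and 10.7 M for scrambled siRNA, and 7.66 M and 8.51 M for Baf53b siRNA. These estimates cover counting error only. Short RNA genes held between 2.83% and 11.4% of the FPKM sum, with no common direction over the pairs. Depth therefore moved with the replicate number, and its part in the differences was not tested.

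Over 15017 genes with a mean of at least 1 FPKM, 14 fell in replicate 2 and 0 rose (limma, Benjamini-Hochberg adjusted p under 0.05), which is 0.0932% and 0% of the genes tested. At an unadjusted p under 0.05 there were 3159 lower (21%) and 560 higher (3.73%). The test had 2 residual degrees of freedom. Counted without a test, 4122 genes (27.4%) had all 3 replicate 2 values below all 3 replicate 1 values and 1021 (6.8%) had all of them above. Within pairs, 5480 genes (36.5%) were lower in all 3 and 1677 (11.2%) higher in all 3. On the scale as deposited the numbered sets thus differed in many genes by small amounts, more often downward. After FPKM was rescaled to a common sum over genes outside the mitochondrial chromosome, the split of genes without overlap became 16% below and 13.1% above. With the median of each library set equal it turned to 13.3% below and 16.1% above, so the direction of the excess depends on the scaling. Of the variance over the genes, 26.9% went with the number, 39.8% with the group and 33.3% with neither. The group has more levels than the number and would hold a larger share under noise alone, so these shares do not rank the 2. The first principal component held 27.9% of the variance. Its scores were -23.6, -21.0 and -23.2 for the replicate 1 libraries and 26.3, 10.2 and 31.4 for the replicate 2 libraries (control, scrambled siRNA and Baf53b siRNA), so it parted the numbers in every group.

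The genes that passed the test were mostly processed pseudogenes. They made up 11 of the 14, a class of 812 genes or 5.41% of those tested. The other 3 were the coding genes Nme2 and 2210418O10Rik and Gm43535, a locus awaiting experimental annotation. Each of the 14 lay lower in every pair without overlap, by between -2.54 and -1.03. All 14 also held 50-base stretches found in transcripts of another gene (12.7% to 100% of their own stretches), against 49.4% of tested genes with any such stretch. For 13 of them a coding gene shared the sequence. These were 12 genes, of which 0 passed the test, and their differences ran from -0.48 to 0.29. The pseudogenes were thus lower while the coding genes that shared the most sequence with them were far less so. For Gm4575 that gene was the model Gm10358, at 4.81 to 9.20 FPKM, and whether it is the parent is not known here.

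How near the copies can be over a short stretch is shown by 3 of these pseudogenes. Each is set over the same 90 bases in the coding sequence of its parent, where capitals mark bases that differ. Gm5138 (mm10 chr6:83875178-83875267, minus strand) is a copy of Gapdh, a glycolytic enzyme. Gm6450 (chr5:93004252-93004341, plus strand) is a copy of Rpl9, a protein of the large ribosomal subunit. Gm10039 (chr11:100362037-100362126, minus strand) is a copy of Atp5g1, a subunit of the mitochondrial ATP synthase. The sequences are from GENCODE M21 transcripts.
Gm5138: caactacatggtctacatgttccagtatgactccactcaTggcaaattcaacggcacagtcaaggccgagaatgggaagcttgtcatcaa
Gapdh: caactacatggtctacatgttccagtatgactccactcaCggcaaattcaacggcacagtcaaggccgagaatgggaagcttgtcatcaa
Gm6450: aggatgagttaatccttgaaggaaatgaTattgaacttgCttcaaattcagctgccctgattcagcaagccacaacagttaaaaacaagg
Rpl9: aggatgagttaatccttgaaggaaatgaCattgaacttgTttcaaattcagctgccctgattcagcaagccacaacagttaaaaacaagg
Gm10039: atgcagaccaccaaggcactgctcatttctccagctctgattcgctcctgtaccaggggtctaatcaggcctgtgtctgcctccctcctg
Atp5g1: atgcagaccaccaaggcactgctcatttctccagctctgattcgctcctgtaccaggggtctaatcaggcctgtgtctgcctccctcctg
Over these 90 bases Gm5138 differs from Gapdh at 1 base and Gm6450 from Rpl9 at 2, and Gm10039 does not differ from Atp5g1 at any (0). The 90 bases do not stand for the whole genes. Along its full length Gm5138 shares 84.3% of its 50-base stretches with Gapdh, Gm6450 34.9% with Rpl9 and Gm10039 92.5% with Atp5g1.

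Gm5138 stood at 62.1, 71.4 and 68.6 FPKM in the replicate 1 libraries of control, scrambled siRNA and Baf53b siRNA, and at 21.7, 26.6 and 26.9 FPKM in the replicate 2 libraries. Its difference was -1.39 (SE 0.07, limma adjusted p = 0.0161), and in every group the replicate 2 library held less than any replicate 1 library. Its parent Gapdh stood at 1109, 1341 and 1241 FPKM in replicate 1 and at 761, 954 and 943 FPKM in replicate 2. Gapdh also lay lower without overlap, but by -0.48 (SE 0.10), and did not pass (adjusted p = 0.0912 in limma). A further Gapdh copy that passed, Gm4691 (mm10 chromosome 6, 128202150 to 128203276, minus strand), went from 24.3, 30.6 and 28.5 FPKM to 4.16, 6.04 and 6.75 FPKM.

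The largest difference was in Gm10247 (mm10 chromosome 16, 8922057 to 8922389, minus strand), which shares 53.0% of its stretches with Rpl35a, a protein of the large ribosomal subunit. It stood at 17.2, 26.1 and 26.9 FPKM in replicate 1 and at 1.71, 3.39 and 4.85 FPKM in replicate 2 (difference -2.54, SE 0.12, limma adjusted p = 0.0161). Rpl35a itself was at 417, 567 and 564 FPKM against 421, 463 and 458 FPKM, and its values overlapped. Tpi-rs11, a copy of the triosephosphate isomerase gene Tpi1, went from 31.4, 30.3 and 30.2 FPKM to 6.33, 9.01 and 9.60 FPKM. Tpi1 went from 310, 360 and 349 FPKM to 295, 290 and 263 FPKM (difference -0.26, adjusted p = 0.191 in limma). Gm6450 was at 5.15, 6.03 and 6.50 FPKM in replicate 1 and at 1.01, 1.47 and 1.10 FPKM in replicate 2, while Rpl9 stood at 542, 679 and 650 FPKM against 600, 518 and 485 FPKM. In these families the copy separated the numbers in each group and the parent did so less or not at all.

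Nme2, a nucleoside diphosphate kinase (mm10 chromosome 11, 93949814 to 93956259, minus strand), was the annotated coding gene that passed under a standard symbol. It stood at 44.1, 48.7 and 57.9 FPKM in replicate 1 and at 20.8, 25.1 and 26.3 FPKM in replicate 2 (difference -1.03, SE 0.07, limma adjusted p = 0.0404). The gene model Gm20390, which overlaps it and shares 47.0% of its stretches, stood at 41.5, 56.4 and 59.8 FPKM against 63.5, 68.4 and 59.1 FPKM. How reads were divided between overlapping models is not known here, so the fall of Nme2 is uncertain. It missed the threshold after rescaling to nuclear genes (adjusted p = 0.0514 in limma).

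As a class, processed pseudogenes lay near the background in direction, and some held large differences. Among the 762 processed pseudogenes without annotated transcription, 24% lay below without overlap and 10.6% above, against 27.4% and 6.8% of all genes tested. Those lower by at least 1 (log2) without overlap were 28 of 762 (3.67%), against 77 of all 15017 genes (0.513%), 12 of 12529 protein-coding genes (0.0958%) and 18 of 161 microRNA genes (11.2%). Genes with no shared stretch (7573) had 7 members lower by that much (0.0924%), and those with over 50% of their stretches shared (1409) had 49 (3.48%). Of these 49, 17 were processed pseudogenes without annotated transcription and 6 were protein-coding. The rest were of other types, so the contrast is not one of pseudogenes alone. When the fit was run on the 7573 genes with no shared stretch alone, an alternative chosen after seeing the data, 0 genes passed in either direction. Every gene that passed in the main fit holds a shared stretch and was left out there. That outcome was thus fixed for them in advance, and no conclusion on shared sequence is drawn from it. Leaving out any single library, which leaves 2 pairs, cut the calls to 1 or 2 lower and 1 or 2 higher.

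**Figure D1:**
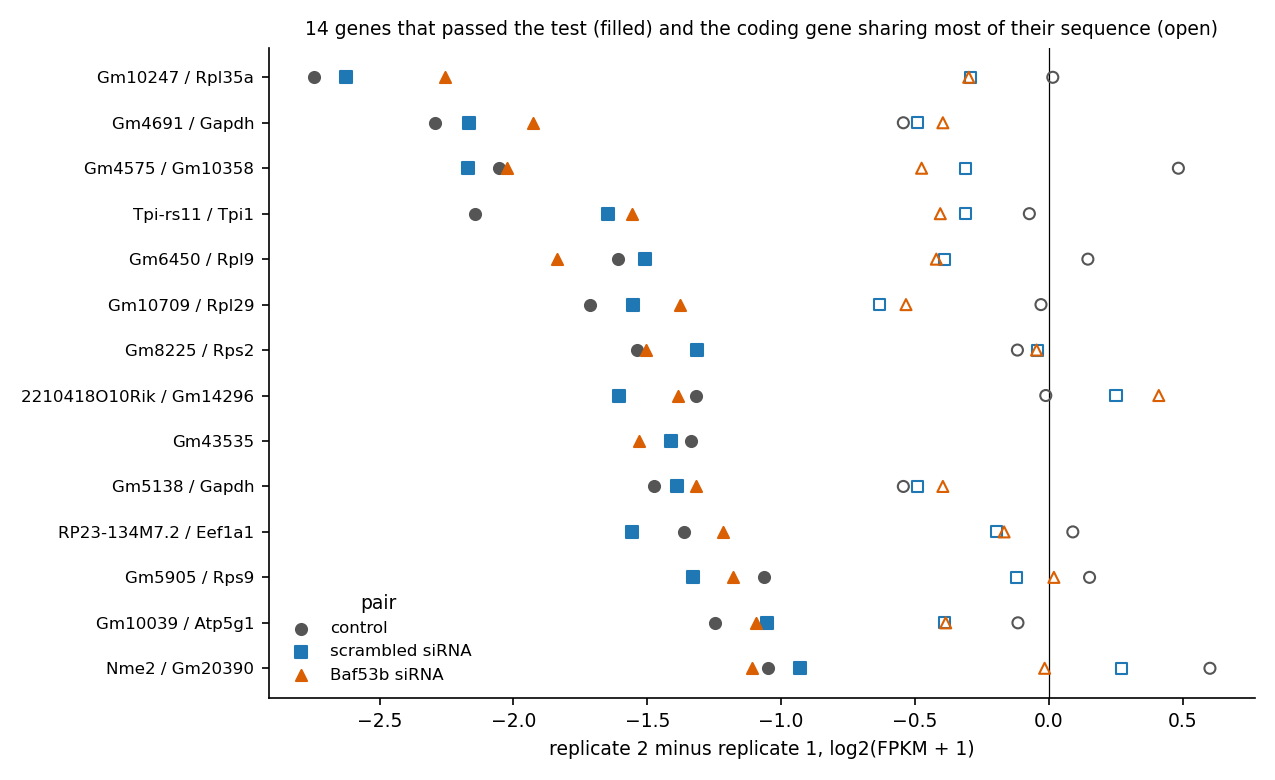
Difference of replicate 2 minus replicate 1 in log2(FPKM + 1) (horizontal axis) in each of the 3 pairs, for the 14 genes that passed the test (filled symbols) and the coding gene that shares most of their sequence (open symbols, 13 rows). The filled symbols lie at or below -0.93 in every pair, and the fitted differences of the open symbols run from -0.48 to 0.29.

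Across ordinary coding genes the difference followed base composition. In 12529 protein-coding genes put into 8 bins by the GC content of their longest transcript, the median difference went down from 0.06 in the lowest bin (31.0% to 42.0% GC) to -0.25 in the highest (57.2% to 74.0% GC). In the lowest bin 17.7% of genes lay above without overlap and 5.93% below. In the highest bin 2.62% lay above and 51.2% below. AT-rich and GC-rich messenger RNAs thus lay on different sides, against 6.8% above and 27.4% below over all genes.

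Each pair showed the same order on its own. The median went from 0.02 to -0.28 in control, from 0.08 to -0.28 in scrambled siRNA and from 0.07 to -0.19 in Baf53b siRNA, and it fell from each bin to the next in all 3. Across all genes with a GC value (14979) the Spearman correlation of the fitted difference with GC content was -0.45. It was -0.29, -0.42 and -0.33 in the 3 pairs taken one by one. Genes share libraries and are not independent, so these are descriptions. With the logarithm of transcript length the fitted difference had a Spearman correlation of -0.0023 (-0.081, -0.014 and 0.1 in the pairs), so length showed no common trend. The gradient was seen in other classes too: of the long intergenic noncoding RNAs, 3.75% of the 160 with lower GC and 14.4% of the 160 with higher GC lay below without overlap. Of processed pseudogenes, the shares were 16% and 32%.

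The mean GC content weighted by FPKM was taken over tested genes outside the mitochondrial chromosome. It went from 49% to 48% in control, from 49% to 48.4% in scrambled siRNA and from 49.2% to 49% in Baf53b siRNA. When a smooth trend on GC was subtracted from each library, an alternative chosen after seeing the data, 12.6% of genes lay below and 10.1% above without overlap, and 12 of the 14 genes still passed, among 13 lower (0.0868%) and 3 higher (0.02%). The exceptions were Gm10039 (adjusted p = 0.0546 in limma) and Nme2 (adjusted p = 0.0895 in limma). Between pairs, the Spearman correlation of the gene differences was 0.42 (control and scrambled siRNA), 0.18 (control and Baf53b siRNA) and 0.42 (scrambled siRNA and Baf53b siRNA) across genes. With the trend subtracted it was 0.34, 0.08 and 0.31.

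**Figure D2:**
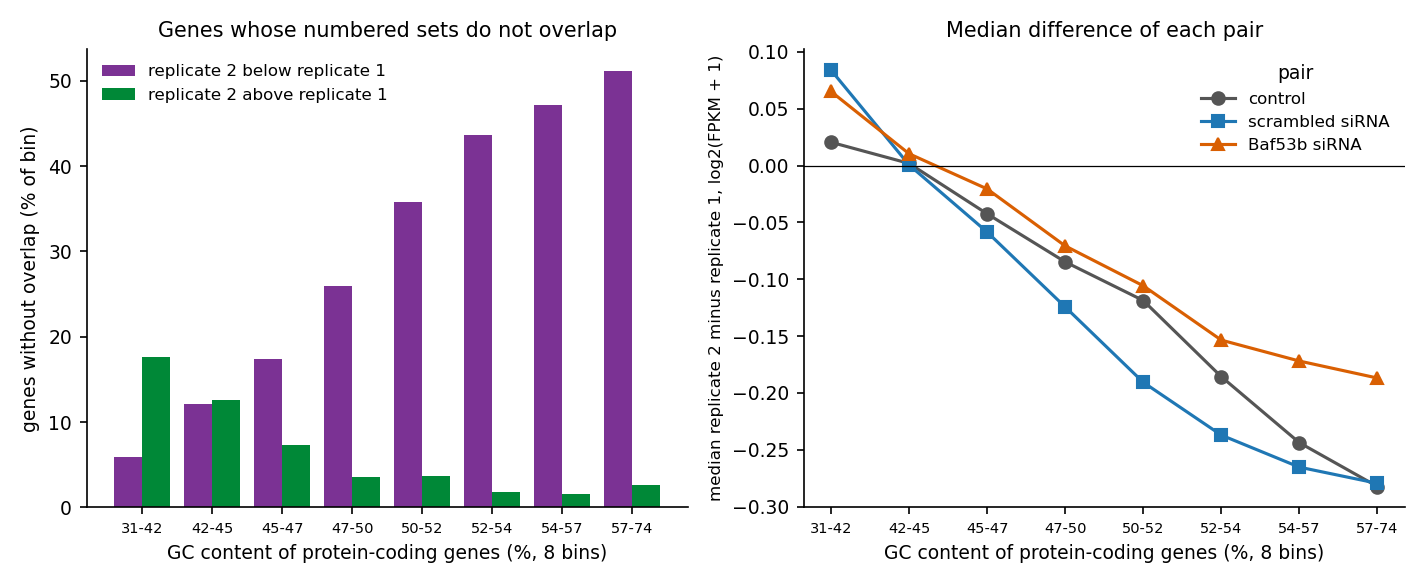
Protein-coding genes in 8 bins of transcript GC content (horizontal axis, percent). Left, the percent of each bin with no overlap between the numbered sets, below rising from 5.93% to 51.2% across the bins. Right, the median difference of each pair in log2(FPKM + 1), going down from bin to bin in all 3 pairs.

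Genes of the mitochondrial chromosome held more of the FPKM sum in replicate 2 in every group: 19.4% against 29.5% for control, 15% against 26.9% for scrambled siRNA and 19.3% against 22.8% for Baf53b siRNA. The gain was 8.51 percentage points ± 4.47 (SD, n = 3 pairs; two-sided exact paired permutation test p = 0.25, the smallest that 3 pairs can give). All 3 replicate 2 shares lay above all 3 replicate 1 shares. The gain was 10.2 points in control, 11.9 in scrambled siRNA and 3.45 in Baf53b siRNA. In the Baf53b siRNA pair the rise of mt-Atp8 alone was about as large as the whole gain. Without mt-Atp8 the share of that pair would be near level, and the numbered sets would overlap. The level of mt-Atp8 is uncertain, as described below. In control and scrambled siRNA every mitochondrial messenger RNA rose.

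Gene by gene, 0 of the 13 mitochondrial messenger RNAs passed the test, with adjusted p from 0.165 in limma. Without overlap, 7 of 13 lay above and 0 below, against 6.8% of all genes above, and the fitted difference was above 0 for 13 of 13 (median 0.38). In the pairs 13 of 13 were higher in control, 13 of 13 in scrambled siRNA and 7 of 13 in Baf53b siRNA, with medians of 0.69, 0.52 and 0.01. In the Baf53b siRNA pair the messenger RNAs therefore lay on both sides of 0.

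By complex, the members of NADH dehydrogenase (complex I, where electrons enter the chain) varied from mt-Nd6, with a difference of 0.56, to mt-Nd4l, with 0.05. mt-Nd6 is the messenger RNA encoded on the light strand. It stood at 2535, 2425 and 2755 FPKM in replicate 1 and at 4816, 3667 and 3084 FPKM in replicate 2 (control, scrambled siRNA and Baf53b siRNA), all above. mt-Nd4l stood at 5648, 5930 and 6560 FPKM against 7844, 6202 and 5023 FPKM, and in Baf53b siRNA it was the lower of the pair. mt-Nd2 (0.56), mt-Nd3 (0.53), mt-Nd4 (0.45) and mt-Nd5 (0.38) lay above without overlap, and mt-Nd1 (0.38) overlapped.

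The cytochrome oxidase subunits of complex IV, which reduces oxygen, had smaller differences of 0.27 (mt-Co1), 0.37 (mt-Co2) and 0.32 (mt-Co3), and mt-Cytb of complex III had 0.33. All 4 overlapped, since each was slightly lower in replicate 2 of the Baf53b siRNA pair. mt-Co1 was at 13620, 14670 and 15530 FPKM in replicate 1 and at 21260, 17580 and 14540 FPKM in replicate 2.

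Of the ATP synthase subunits, mt-Atp6 had a difference of 0.60 and mt-Atp8 of 1.18 (SE 0.42, adjusted p = 0.176 in limma). mt-Atp8 was at 39680, 14150 and 35100 FPKM in replicate 1 and at 59790, 67510 and 57130 FPKM in replicate 2. Its lowest value was in scrambled siRNA replicate 1, and that pair had a difference of 2.25, against 0.59 in control and 0.70 in Baf53b siRNA. mt-Atp8 is the shortest of these messenger RNAs, and its reading frame overlaps that of mt-Atp6, so the division of fragments between them is uncertain. Both mitochondrial ribosomal RNAs lay above without overlap, mt-Rnr1 by 0.61 and mt-Rnr2 by 0.66. mt-Rnr2, the large subunit RNA, stood at 3034, 3032 and 3487 FPKM in replicate 1 and at 5971, 5072 and 4169 FPKM in replicate 2 (adjusted p = 0.13 in limma).

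Within the 13 messenger RNAs the difference also went with GC content, which ran from 31.9% (mt-Atp8) to 41.1% (mt-Nd4l). The Spearman correlation was -0.91 over these 13 genes, which share the 6 libraries and 1 chromosome. With the GC trend subtracted 4 of 13 lay above without overlap and the median was 0.30.

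Of 75 tested nuclear genes of oxidative phosphorylation, 4 (5.33%) lay above and 28 (37.3%) below without overlap, against 6.8% and 27.4% of all genes (median -0.13, against -0.10), and 0 passed. After rescaling to nuclear genes 9 (12%) lay above and 14 (18.7%) below, near the 13.1% and 16% of all genes. The 4 above were Cox6b1, Cox8a, Cox5a and Ndufa12. Cox6b1, a subunit of complex IV, was at 320, 421 and 393 FPKM in replicate 1 and at 637, 546 and 495 FPKM in replicate 2 (difference 0.57, adjusted p = 0.122 in limma). Of 78 mitochondrial ribosomal proteins, 3 (3.85%) lay above and 27 (34.6%) below (median -0.13). After that rescaling 7 (8.97%) lay above and 11 (14.1%) below, against the same 13.1% and 16%. After rescaling to nuclear genes 9 of 13 mitochondrial messenger RNAs lay above and both nuclear medians were -0.02 and -0.03.

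**Figure D3:**
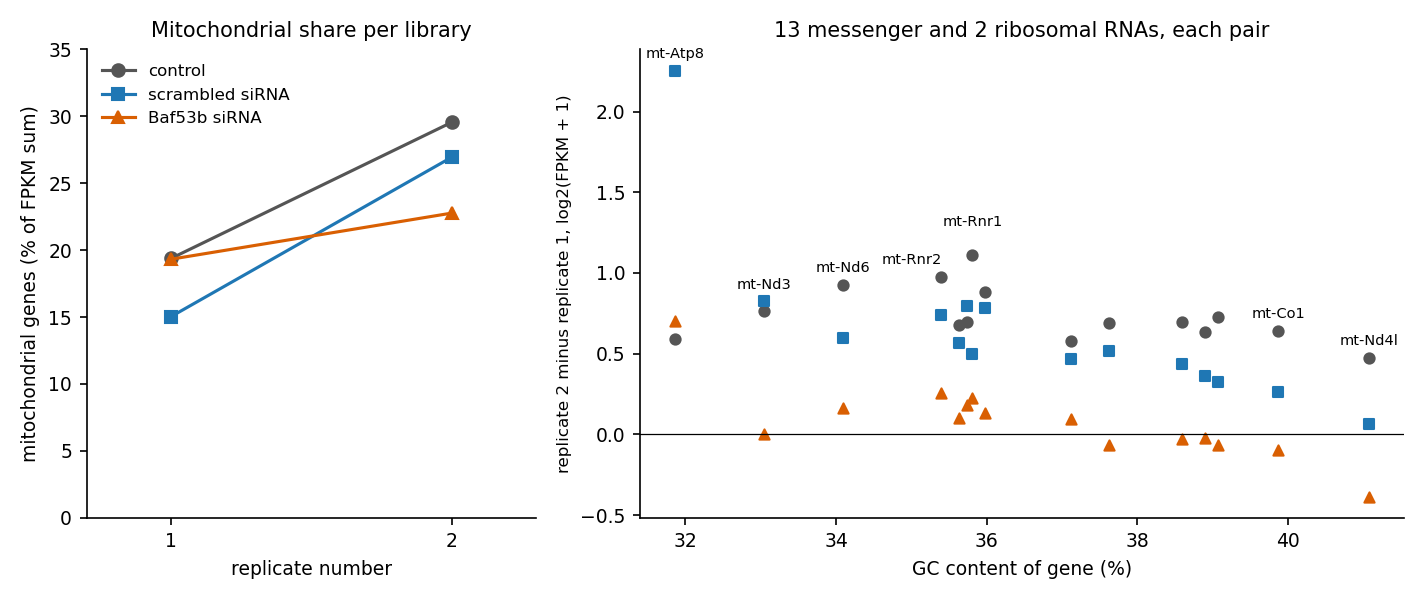
Left, percent of the FPKM sum held by genes of the mitochondrial chromosome in each library, joined within a group. All 3 lines go up from replicate 1 to replicate 2, and that of Baf53b siRNA would be near level without mt-Atp8. Right, difference of replicate 2 minus replicate 1 in log2(FPKM + 1) of the 13 messenger and 2 ribosomal RNAs against their GC content (percent), 1 symbol per pair; control and scrambled siRNA lie above 0 for every gene and Baf53b siRNA on both sides of it.

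Regional markers lay with the rest of the genes. In 9 lists of neighbouring regions (cortical and piriform, claustrum, striatum, central amygdala, medial amygdala, hippocampus, thalamus, hypothalamus, and cholinergic and pallidal neurons) 85 genes were tested, and 0 passed. Of these 7.06% lay above and 27.1% below without overlap, close to the 6.8% and 27.4% of all genes. A share near that background is not a result about a region.

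The tissue's own markers were present in all libraries. Slc17a7, the vesicular glutamate transporter of pallial neurons, stood at 373, 410 and 394 FPKM in replicate 1 and at 303, 321 and 288 FPKM in replicate 2 (difference -0.37, adjusted p = 0.0934 in limma). Neurod2, a transcription factor of the same neurons, was at 12.1, 10.6 and 12.6 FPKM against 13.9, 13.4 and 12.9 FPKM (difference 0.17). These markers of 1 cell type lay on opposite sides, each without overlap. Rspo2, a marker of the basal and lateral nuclei, was at 0.963, 2.1 and 1.64 FPKM against 3.36, 3.41 and 1.32 FPKM and overlapped. Rorb was between 1.95 and 2.45 FPKM in replicate 1 and between 2.50 and 2.80 FPKM in replicate 2.

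Among markers of neighbours, Drd1, a dopamine receptor of striatal neurons, was at 6.44, 4.84 and 5.87 FPKM in replicate 1 and at 6.86, 6.65 and 6.74 FPKM in replicate 2 (difference 0.21, adjusted p = 0.275 in limma). In the striatal list 2 of 14 (14.3%) lay above (Drd1 and Six3) and 5 (35.7%) below, against 6.8% and 27.4% of all genes. The abundant striatal members Penk (-0.20) and Pde1b (-0.33) were not above. Prkcd, a kinase of central amygdala and thalamic neurons, was at 3.15, 4.51 and 6.28 FPKM against 2.46, 4.37 and 8.93 FPKM and overlapped. In the central amygdala list 1 of 12 (8.33%) lay above (Ezr) and 4 (33.3%) below, with Sst at a difference of 0.03 and Wfs1 at -0.42. Ttr, the transthyretin gene of choroid plexus, was at 1.09, 8.88 and 1.00 FPKM against 2.39, 0.88 and 2.73 FPKM, so its highest value was in scrambled siRNA replicate 1. Prox1 of the dentate gyrus stayed between 1.68 and 2.04 FPKM and Tcf7l2 of the thalamus between 0.795 and 2.1 FPKM. Other members lay below without overlap but did not pass. They included Rgs14 (-0.46) of the hippocampal list, and Ramp3 (-0.64) and Ntng1 (-0.53) of the thalamic list. Cux2 (-0.67) and Crym (-0.52) of the cortical list did so too. In these lists 1 of 8, 3 of 12 and 4 of 19 lay below, and 1, 0 and 2 above.

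Of cell types, myelin genes had 4 of 22 (18.2%) above without overlap and 0 below, against 6.8% and 27.4% of all genes. The median of the myelin list was 0.12, against -0.10 over all genes, and stayed above 0 under each rescaling. The 4 were Aspa (0.50), an enzyme that breaks down N-acetylaspartate, Ppp1r14a (0.60), Mal (0.25), a myelin membrane protein, and Ugt8a (0.21), which makes a myelin lipid. The abundant myelin genes Mbp (0.09) and Mobp (0.26) overlapped, and by pair the median of the list was 0.23, 0.05 and 0.02. Mbp stood at 392, 537 and 508 FPKM in replicate 1 and at 492, 554 and 477 FPKM in replicate 2.

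Over all 13 cell type lists with 182 tested genes, 0 passed, and 7.14% lay above and 9.34% below without overlap, against 6.8% and 27.4% of all genes. Microglial genes had 0 of 20 above and 0 below, although 9 were lower and 1 higher within all 3 pairs, against 36.5% and 11.2% of all genes. Their levels differed between the groups, with C1qa (complement) at 36.7, 71.3 and 170 FPKM in replicate 1. Inhibitory interneurons had 1 of 20 above and 2 below, and astrocytes 2 of 22 above and 4 below. Of 8 tested leukocyte and antigen presentation genes 1 lay below without overlap. Several of the others passed the filter only through the siRNA groups, so no median is given for this list. Coro1a, the 1 below, stood at 62.8, 68.9 and 77.4 FPKM in replicate 1 and at 41.7, 52.5 and 56.0 FPKM in replicate 2. In bulk tissue fewer cells of a type and less RNA per cell cannot be told apart.

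**Figure D4:**
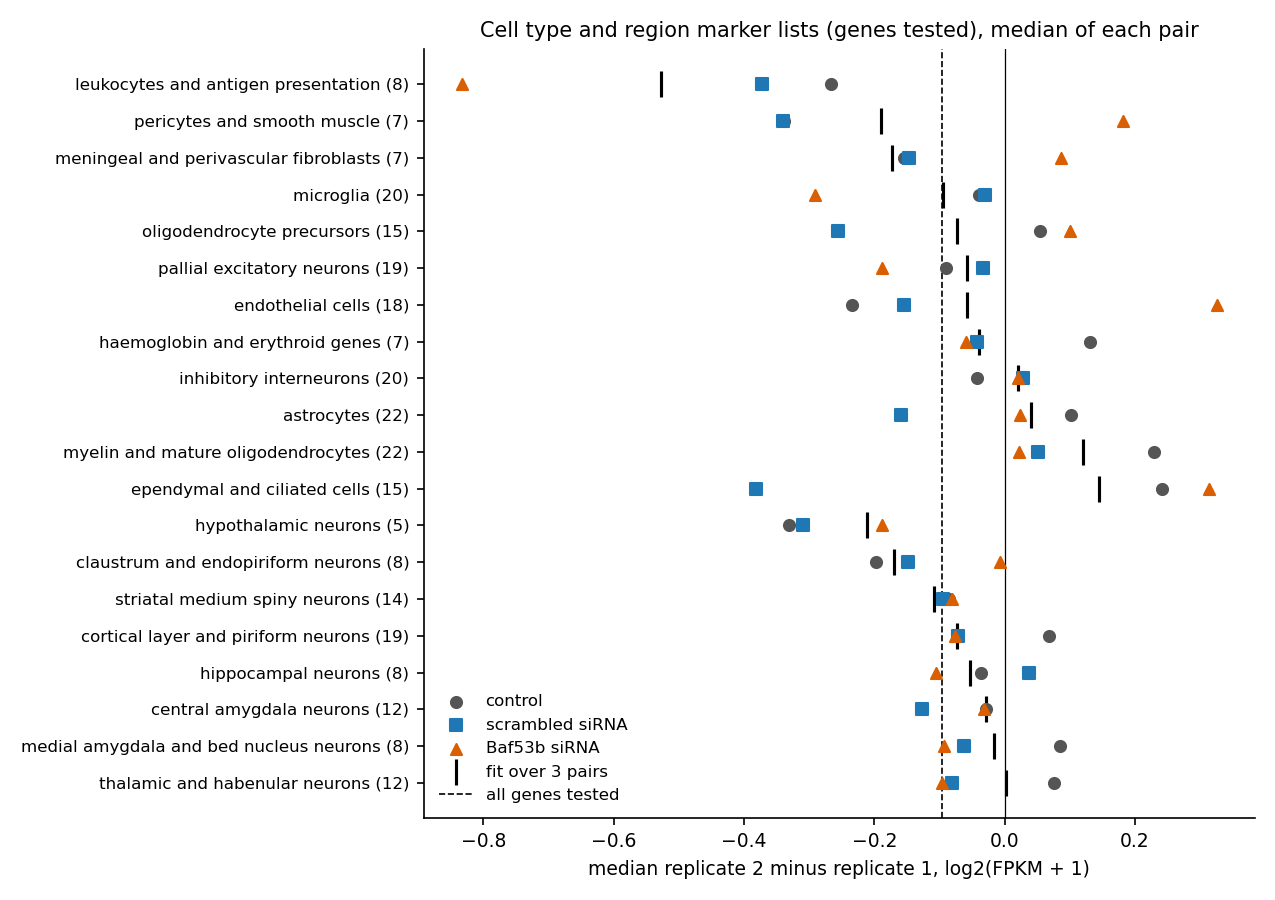
Median difference of replicate 2 minus replicate 1 in log2(FPKM + 1) (horizontal axis) over the tested genes of each cell type and region list with at least 3 tested genes, for each pair (symbols) and for the fit over 3 pairs (bars); numbers in brackets are genes tested. Most bars lie near the dashed line at -0.10, the median of all genes. The leukocyte bar rests on genes of which several passed the filter only through the siRNA groups and is not read as a result.

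In 5 lists of neuronal function (release, receptors, channels and peptides) with 118 tested genes, 0 passed, and 38.1% lay below without overlap and 7.63% above, against 27.4% and 6.8% of all genes. Glutamate receptors and postsynaptic proteins had 18 of 31 below and 2 above (median -0.14). The scaffold Dlg4 (PSD-95) stood at 223, 240 and 222 FPKM in replicate 1 and at 174, 184 and 168 FPKM in replicate 2 (difference -0.38, adjusted p = 0.0845 in limma). The 2 above were the NMDA receptor subunits Grin2a (0.25) and Grin2b (0.16), while the obligatory subunit Grin1 was at -0.33. After rescaling to nuclear genes 8 of 31 lay below, against 16% of all genes, and the median was -0.03. Presynaptic release genes had 11 of 26 (42.3%) below and 1 (3.85%) above, with Syp at -0.31 and Snap25 and Syt1 at -0.03 and -0.04. After rescaling 7 (26.9%) of them lay below and 1 (3.85%) above, against 16% and 13.1% of all genes. With the GC trend subtracted 3 (11.5%) of these release genes lay below and 2 (7.69%) above, near the 12.6% and 10.1% of all genes. Of the glutamate receptor and postsynaptic genes 10 (32.3%) then lay below and 2 (6.45%) above.

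Of 19 glycolysis and hypoxia genes tested, 10 (52.6%) lay below and 0 above without overlap, against 27.4% and 6.8% of all genes (median -0.20). After rescaling to nuclear genes 8 (42.1%) lay below and 1 (5.26%) above, against 16% and 13.1% (median -0.11). With the GC trend subtracted 6 (31.6%) lay below and 1 (5.26%) above, against 12.6% and 10.1% (median -0.08). Aldoa (aldolase) stood at 908, 1028 and 975 FPKM in replicate 1 and at 784, 775 and 704 FPKM in replicate 2. Pkm (pyruvate kinase) was at 475, 536 and 502 FPKM against 378, 394 and 364 FPKM. Their differences were -0.36 and -0.41 and did not pass (adjusted p = 0.134 and 0.089 in limma). Immediate early genes, which neurons switch on with activity, had 1 of 23 above (Egr4) and 3 below (Arc, Nr4a1 and Egr3), or 13% below against 27.4% of all genes. Cytosolic ribosomal proteins had 2 of 78 above and 18 (23.1%) below, near that background, with a median of 0.14 in control, -0.30 in scrambled siRNA and -0.27 in Baf53b siRNA, so the control pair went the other way. Of BAF complex subunits, 1 of 29 lay above (Smarce1) and 11 (37.9%) below. After rescaling to nuclear genes 4 (13.8%) of these subunits lay above and 4 (13.8%) below, against 13.1% and 16% of all genes. Actl6b itself was at 42.9, 43.8 and 42.8 FPKM in replicate 1 and at 44.1, 43.9 and 39.6 FPKM in replicate 2 (difference -0.02, adjusted p = 0.871 in limma), so the number did not move the targeted gene detectably.

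The named genes on the upper side were 12 that did not pass, with adjusted p between 0.0781 and 0.0824 in limma and no overlap between the numbers. They were chosen by p among genes higher in all 3 pairs. Pcsk1n encodes proSAAS, a neuroendocrine precursor protein that inhibits a prohormone convertase. It stood at 63.9, 54.5 and 60.7 FPKM in replicate 1 and at 110, 118 and 117 FPKM in replicate 2 (means 59.7 ± 4.80 and 115 ± 4.61 FPKM, SD, n = 3). Its difference was 0.94 (SE 0.09). Basp1, a membrane protein of axon terminals, was at 174, 158 and 187 FPKM against 342, 299.7 and 268 FPKM. Scand1, a SCAN domain protein of high GC content (68.4%), was at 4.52, 4.18 and 5.34 FPKM against 10.9, 14 and 13.6 FPKM. Pcsk1n, Basp1 and Scand1 lay above although, at 57.3%, 56.4% and 68.4% GC, they fell in bins where most separated genes lay below. The GC content of the 12 ran from 41.6% to 68.4%.

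Rheb, the small GTPase that activates mTOR complex 1, stood at 65.8, 55.0 and 66.8 FPKM in replicate 1 and at 96.5, 90.6 and 87.5 FPKM in replicate 2. Tfam, the factor that packs and transcribes mitochondrial DNA, was at 20.1, 18.0 and 18.8 FPKM against 32.0, 23.6 and 28.3 FPKM (difference 0.53). The histone variant H2afj (0.93), Ccdc85b (0.68), the lysosomal fucosidase Fuca1 (0.56), Nkap (0.62), Pdzd9 (0.67) and the translocon protein Sec62 (0.55) made up most of the rest. Sumo3, a small ubiquitin-like modifier, had the largest difference (1.90, SE 0.27). It was at 1.07, 0.841 and 3.86 FPKM against 6.58, 10.1 and 10.5 FPKM, and 89.4% of its stretches occur in other genes, so its level is uncertain.

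The named genes on the lower side besides Nme2 were 11 that did not pass, again with adjusted p up to 0.0824 in limma. The tubulins Tuba1b and Tuba1c, subunits of microtubules, stood together. Tuba1b was at 325, 400.4 and 392 FPKM in replicate 1 and at 196, 225 and 217 FPKM in replicate 2 (difference -0.80, SE 0.08). Tuba1c was at 152, 173 and 166 FPKM against 91.6, 97.3 and 93.6 FPKM (difference -0.79, SE 0.07). These paralogs share 66.7% and 52.7% of their stretches with other genes, so the split between them is uncertain. The GABA-A receptor subunit Gabrb2 was at 62.7, 69.8 and 65.3 FPKM against 42.7, 42.5 and 39.9 FPKM, with none of its sequence shared and a GC content of 44%, in a bin where 12.6% of genes lay above and 12.1% below.

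Celf3, an RNA-binding protein of neurons, was at 61.7, 75.5 and 77 FPKM against 39.3, 43.3 and 49.4 FPKM. The noncoding snoRNA host Snhg8 (-0.69), the nuclease Snd1 (-0.73), Klhl22 (-0.72), the lysosomal transporter Spns1 (-0.79), Fam173a (-0.69) and Rps27rt (-1.29, 91.1% shared) lay below without overlap. Laptm5, a lysosomal protein of microglia, was lower within each pair (23.9 to 11.7, 39.7 to 17.2 and 49 to 28.9 FPKM) but overlapped between groups.

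**Figure D5:**
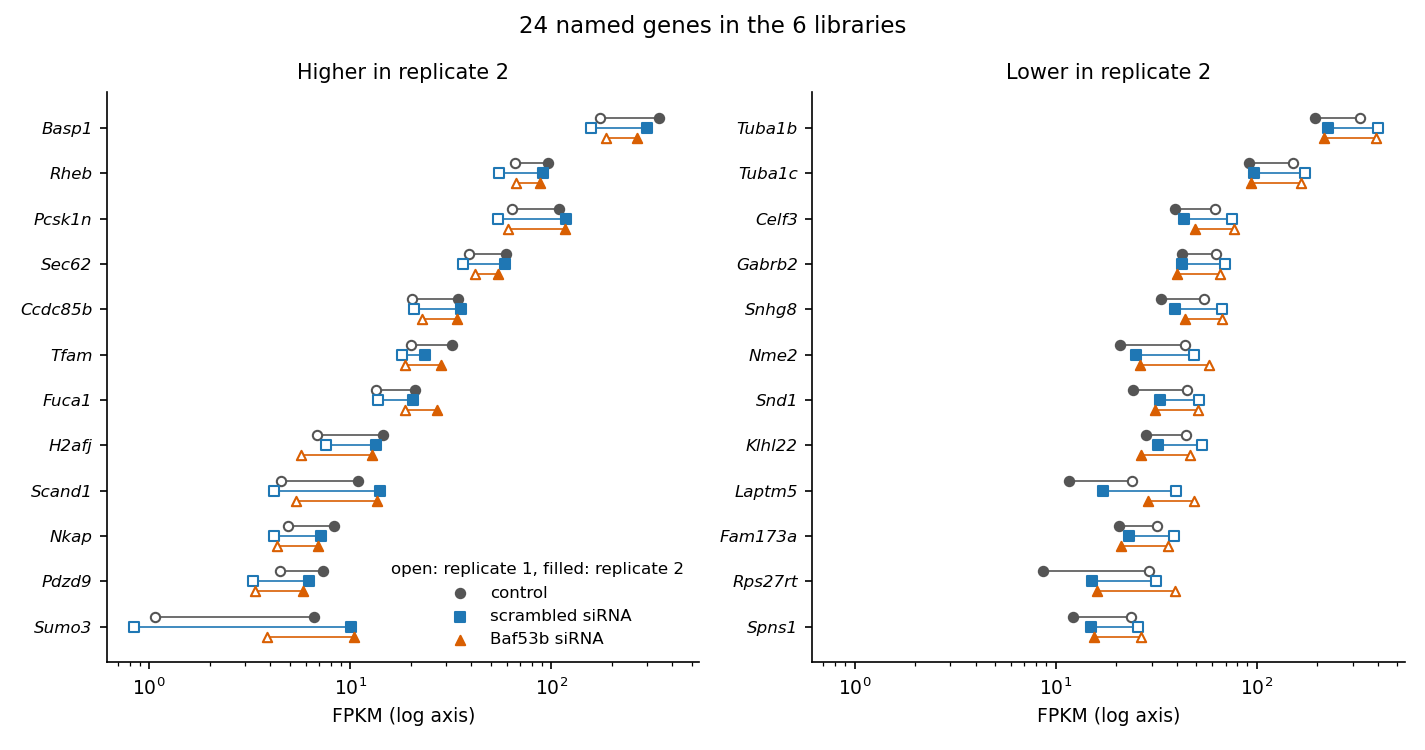
FPKM (horizontal log axis) of the 24 named genes in the 6 libraries, with replicate 1 open and replicate 2 filled and a line joining each pair. In the left panel every filled symbol lies to the right of its open partner, and in the right panel to its left; Nme2 is the 1 gene of the 24 that passed.

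The number of genes that passed depended on whether short RNA genes were in the fit. With microRNA, small nucleolar, small nuclear and like genes left out, 47 fell and 4 rose over 14664 genes (0.321% and 0.0273%). The 4 that rose were Scand1, Pcsk1n, H2afj and Ccdc85b. Of the 51, 27 were protein-coding and 22 were pseudogenes, all 22 lower, and among the coding genes that fell were Tuba1b, Tuba1c, Gabrb2, Snd1, Celf3, Laptm5 and Rps14. Some of the 51 held no shared stretch, among them Klhl22, Gabrb2, Celf3 and Spns1, which fell, and Pcsk1n and Scand1, which rose. All 14 of the genes above were among them. Without the group as a block the counts were 1112 lower (7.4%) and 97 higher (0.646%), with all 14 among them.

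The replicate number also bears on how many genes are called between groups. Each group holds 1 library of each number, so taking the number as a block leaves the group differences themselves unchanged. Only their error estimate and degrees of freedom change. Baf53b siRNA against scrambled siRNA gave 19 genes higher (0.127%) and 3 lower (0.02%) without the number in the model. With the number as a block it gave 10 higher (0.0666%) and 1 lower (0.00666%), and 9 of these 11 were among the 22. Without scrambled siRNA replicate 1 it gave 6 higher and 22 lower, and without scrambled siRNA replicate 2 it gave 8 higher and 13 lower, so its direction rests on these libraries. Without Baf53b siRNA replicate 1 it gave 52 higher and 3 lower, and without replicate 2 of that group 36 higher and 3 lower. Baf53b siRNA against control gave 173 higher (1.15%) and 3 lower (0.02%) without it and 142 higher (0.946%) and 3 lower (0.02%) with it, of which 126 were shared. Scrambled siRNA against control gave 0 higher and 1 lower (0.00666%) without it and 0 in either direction with it.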

How the data were processed

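Poly(A)-selected, stranded, paired-end RNA-seq was done on 6 lateral amygdala libraries, per the labels' protocols. The submitters' processing notes name bcl2fastq 2.19.1.403, TopHat2 2.1.1, Cufflinks 2.2.1 and the build mm10; neither annotation nor settings are given in the sources used here. Per the file headers, the authors deposited FPKM for every gene with the bounds of its confidence interval. Where FPKM is scaled to all fragments of a library, a gain of mitochondrial RNA lowers the FPKM of other genes. Which scaling was used is not known here, and the part of such an effect in the differences was not tested. Each table held 50383 gene IDs, of which 50160 matched GENCODE M21 (GRCm38, the same build), used for gene type, length, GC content and sequence. The rows of 48 IDs were summed, 92 spike-in rows left out of tests, and 4 genes with a failed estimate dropped. No read counts were used. The width of the deposited interval, read as 2 standard errors on each side, was turned into an estimate of fragments per gene, giving a median of 173 to 302 per tested gene and library.

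Values were log2(FPKM + 1), kept at a mean FPKM of at least 1. limma 3.58.1 (R 4.3.3) fitted group as block plus replicate number on all 15017 genes (eBayes with trend and robust, 2 residual degrees of freedom, prior 3.03, two-sided, Benjamini-Hochberg at 0.05). In data simulated for this comparison with 15017 genes and 200 changed genes in each of 20 datasets, 90.5% of 2-fold and 96.3% of 4-fold changes were recovered, and 11.2% of calls were false. That false share lay above the threshold of 0.05. The simulated errors were independent and normal, without the small shifts of many genes seen here. In the real data 77 genes lay lower and 18 higher by at least 1 (log2) without overlap, yet 14 and 0 passed. The simulated rates therefore cannot be carried over to these data. Shared sequence is the percent of a gene's 50-base windows found in transcripts of other genes.

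Samples with the same number deviated together: Pearson correlations of the pair differences were 0.20, 0.13 and 0.12, all above 0.1, with no label saying what the numbers share, so the fits with the number as a block are given beside those without. Named genes were, per direction, the 12 with the largest difference among those passing, filled by smallest p among genes differing by at least 0.3 with 1 sign in all pairs, leaving out predicted genes, pseudogenes and clones, plus all mitochondrial messenger and ribosomal RNAs and the 3 most abundant members of each of 41 lists. Some list members under this rule are not reported here. Members named beyond these were picked after their values were seen. The comparison, the lists and the rule were chosen with earlier results of these data known.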

Additional observations from a re-analysis of the deposited data

Results flagged for a closer look

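In 3 gene lists of at least 5 tested genes the pairs of different groups had medians on opposite sides of 0, beyond 0.2 (log2) on each side. The difference between groups was not tested, since each group holds 1 pair and a model with group-specific differences leaves no residual degrees of freedom. Ependymal and ciliated cell genes (15 tested) had a median of 0.31 in the Baf53b siRNA pair and -0.38 in the scrambled siRNA pair. Endothelial genes (18 tested) had a median of 0.33 in the Baf53b siRNA pair and -0.23 in the control pair. Nuclear-retained long noncoding RNAs (13 tested) had 0.38 in the Baf53b siRNA pair and -0.36 in the control pair, where Meg3 went from 482 to 190 FPKM in control and from 322 to 564 FPKM in Baf53b siRNA.

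The synthetic spike-in rows, which the labels do not mention and no comparison uses, summed to 117 FPKM and 125 FPKM in the control libraries (replicate 1 first). They summed to 207 FPKM and 656 FPKM in scrambled siRNA and to 4825 FPKM and 811 FPKM in Baf53b siRNA, so every siRNA library lay above control, and the sum did not follow the replicate number.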

How the results depend on the processing

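Genes called lower and higher in replicate 2 (14 and 0 as reported) numbered 0 and 0 with no filter on low values (29908 genes), 47 and 4 without short RNA genes, 5 lower without robust and 0 lower without trend in eBayes, and 1112 and 97 without the group block. With shared-sequence genes left out, which drops all of the 14, 0 were called lower. Called higher were 2 with the minimum mean FPKM at 5, 3 with median centring and 3 with the GC trend subtracted. Leaving out single libraries gave 1 to 2 lower and 1 to 2 higher.

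Genes below and above without overlap were 16% and 13.1% scaled to nuclear genes, 13.3% and 16.1% median centred, 15% and 14.1% quantile normalized, and 12.6% below with the GC trend subtracted and 15.9% below with no filter. Median centring moved the median of all genes by 0.12. Genes lower and higher in every pair (36.5% and 11.2%) were 23.4% and 20.8% scaled to nuclear genes, 20.1% and 25.2% median centred, 22.6% and 22.1% quantile normalized and 20.2% and 18.7% with the GC trend subtracted, and 22.7% were lower with no filter. Leaving out single libraries gave 30.4% to 37.7% below, 8.86% to 10.7% above, 41.7% to 49.9% lower and 16.9% to 20.1% higher. The correlation with GC content was -0.33 with no filter and -0.027 with the trend subtracted. The mitochondrial gain kept its direction in every alternative run, but no run left out mt-Atp8 alone.

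With the replicate number as a block, the group comparisons gave 11 genes (Baf53b siRNA against scrambled siRNA, 12 when scaled to nuclear genes) and 0 (scrambled siRNA against control, 0 scaled with or without the block). Leaving out single libraries gave 21 to 55, 86 to 134 (Baf53b siRNA against control) and 3 to 42. The split of Baf53b siRNA against scrambled siRNA, 19 higher and 3 lower, turned to 6 and 22 without scrambled siRNA replicate 1 and to 8 and 13 without its replicate 2. The medians of 17 of 41 lists changed sign under at least 1 rescaling. Of the list medians 502 values stayed within their spread and 110 moved. Of values for named genes 361 kept their call, 48 gained it and 12 lost it. For these, the cause was not tested. At 3 pairs, small differences are beyond what the test can call.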
